A study of Mus musculus with 3 samples.

Results

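The loci of 5 transcription factor genes of dentate granule neurons, Prox1, Neurod1, Neurod2, Neurod6 and Bcl11b, were examined in maps of accessible chromatin from the mouse dentate gyrus. Each locus was a window of the mm9 genome assigned to the gene. The windows were used as given and could not be checked against gene positions, since no mm9 annotation was used. The windows were chr1:191890000-192090000 for Prox1, chr2:79250000-79340000 for Neurod1, chr11:98160000-98215000 for Neurod2, chr6:55590000-55670000 for Neurod6 and chr12:109110000-109290000 for Bcl11b. Every peak that overlapped a window was taken, and peaks of different animals that shared at least 1 bp were joined into 1 region. This gave 40 regions of the 84529 in the whole genome, in 605 kb of windows.

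The data are ATAC-seq peak lists, in which a peak marks DNA that the transposase Tn5 could reach. They come from 3 C57BL/6 mice aged 8 weeks, 1 library per animal, from dissected dentate gyrus. Their only group name is E24, whose meaning is not given, so they form 1 group with 3 replicates. The series concerns accessibility after neuronal activation. No other group was analysed here, and no comparison of conditions was made. Each peak has a score given by the authors' peak calling. Scores are not on 1 scale between lists, so each is also given as a score percentile, the percent of peaks of the same list with a lower score. Tissue was used whole, so fewer cells with an open site and less opening per cell cannot be told apart, and a peak cannot be assigned to granule neurons. The lists say nothing of the expression of these genes, so whether the tissue label fits could not be checked from them. Peaks were placed only by window, and which of them lie at a promoter, in an exon or in an intron was not determined.

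Dentate granule neurons are made throughout life from progenitors in the subgranular zone, and a cascade of transcription factors directs their birth and identity. Prox1, a homeobox factor, is needed for granule neuron fate and is widely used as their marker. Neurod1, Neurod2 and Neurod6 are basic helix-loop-helix factors that pair with E proteins and bind E-boxes. Neurod1 acts in newborn granule neurons, Neurod2 in their maturation, and Neurod6 is best known in pyramidal neurons of cortex and hippocampus. Bcl11b, also called Ctip2, is a zinc finger factor present in granule neurons and in pyramidal neurons of CA1. Opening of chromatin at promoters and distal enhancers goes along with the activity of such genes in many tissues.

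Promoter sequences are shown for the 4 genes whose promoter held an E-box, the motif that NeuroD factors themselves bind. They were taken from RefSeq, build GRCm38.p6, which is another build than that of the peaks, so they were not placed in any peak. All 5 genes matched the table, Prox1 with 2 start sites. Each sequence gives the 250 bases before the start, 5′ to 3′ on the minus strand, and capitals mark matches to CANNTG on either strand. Coordinates here are those of GRCm38.p6: chr1:190170828-190171077 for Prox1, chr2:79456637-79456886 for Neurod1, chr11:98329646-98329895 for Neurod2 and chr6:55681264-55681513 for Neurod6.
Prox1: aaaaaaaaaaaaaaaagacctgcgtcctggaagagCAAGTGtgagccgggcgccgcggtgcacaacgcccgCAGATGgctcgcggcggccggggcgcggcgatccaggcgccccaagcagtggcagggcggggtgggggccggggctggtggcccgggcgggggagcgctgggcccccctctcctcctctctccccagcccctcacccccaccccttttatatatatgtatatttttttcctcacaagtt
Neurod1: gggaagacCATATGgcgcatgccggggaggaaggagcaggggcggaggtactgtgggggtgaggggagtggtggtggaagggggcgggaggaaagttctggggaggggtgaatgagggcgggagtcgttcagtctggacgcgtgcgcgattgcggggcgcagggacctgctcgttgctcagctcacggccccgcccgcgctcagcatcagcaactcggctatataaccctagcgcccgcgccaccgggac
Neurod2: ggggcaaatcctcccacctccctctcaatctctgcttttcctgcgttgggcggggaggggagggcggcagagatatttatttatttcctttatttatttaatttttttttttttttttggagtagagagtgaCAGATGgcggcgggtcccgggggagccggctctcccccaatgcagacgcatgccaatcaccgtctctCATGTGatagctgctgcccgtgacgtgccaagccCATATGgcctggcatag
Neurod6: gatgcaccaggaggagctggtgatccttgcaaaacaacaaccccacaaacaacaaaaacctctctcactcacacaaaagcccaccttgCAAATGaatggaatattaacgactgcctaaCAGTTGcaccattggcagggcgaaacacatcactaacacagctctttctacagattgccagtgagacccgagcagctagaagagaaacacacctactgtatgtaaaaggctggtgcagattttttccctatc
Neurod2 had 3 matches, whose first bases lay 118, 51 and 17 bases before the start. Prox1 had 2, at 215 and 179 bases, Neurod6 had 2, at 162 and 132 bases, and Neurod1 had 1, at 242 bases. The Neurod2 match at 118 bases and the Prox1 match at 179 bases read CAGATG. The other Prox1 promoter and that of Bcl11b had no match. Over windows of 300 bases, which add the 50 bases after the start, 4 of 6 promoters of these genes held CANNTG, against 72.3% of 32851 promoters in the table. CAGATG, the form of this motif often bound by NeuroD factors, was in 2 of the 6 and in 17.2% of all. TGANTCA, the AP-1 motif, was in 0 of the 6 and in 7.81% of all. CCAAT was in 3 of the 6 and in 37.4% of all, and TATAAA in 2 of the 6 and in 13.6% of all, on either strand. CG dinucleotides numbered 26 at Neurod1, 25 and 14 at the 2 Prox1 promoters, 16 at Neurod2, 9 at Bcl11b and 3 at Neurod6, against a median of 7 over all promoters. These counts describe the letters and say nothing of binding.

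Of the 40 regions, 11 had a peak in all 3 animals, 14 in 2 animals and 15 in 1. The share held by all 3 was therefore 27.5%, against 43.6% of all regions of the genome. Replicates 1 and 2 together held 13 of the 14 regions found in 2 animals, against 75.4% of such regions in the genome. Of the 15 regions found in 1 animal, replicate 2 held 11 and replicate 1 held 4, against 48.8% and 31.9% in the genome. No region was called in replicate 3 alone, which had 19.4% of the regions of 1 animal in the genome. The remaining region of 2 animals, at Bcl11b, joined replicate 3 with replicate 1, a pair with 9.22% of such regions in the genome. Of the 24 regions that replicates 1 and 2 both held, 11 (45.8%) also had a peak in replicate 3, against 71.5% over the genome. Of the 12 regions that replicates 1 and 3 both held, 11 were in replicate 2 (background 95.3%), and all 11 regions of replicates 2 and 3 were in replicate 1 (background 92.5%). With replicate 3 left out, 24 of 40 regions (60%) were held by both remaining animals, against 65.2% in the genome. The share at the loci was below that of the genome under the other alternatives too: 24.4% against 32.5% when peaks had to overlap by 50% of both, 36.4% against 50.4% in the highest-scoring 50% of each list, and 26.9% against 49.2% in lists cut to equal length. It was 30.6% against 52.5% without replicate 1 and 41.4% against 54.2% without replicate 2. Replicate 3 had 48769 peaks, the fewest of the 3 lists, and the part of its lower number in this count was not tested.

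**Figure D1:**
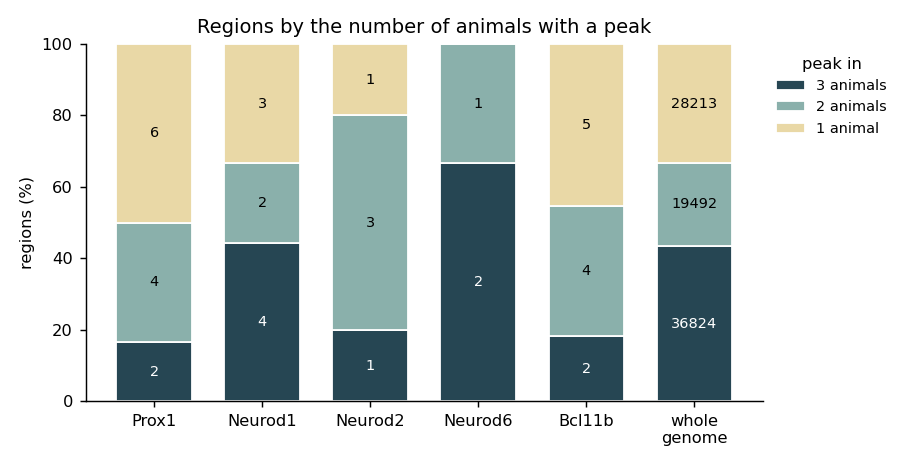
Regions at each locus and in the whole genome (x axis), split by the number of animals with a peak, as percent of regions (y axis); numbers in the bars are counts of regions. Among the loci, Neurod6 and Neurod1 had the highest shares of regions in all 3 animals, at 2 of 3 and 4 of 9. Prox1 had the lowest, at 2 of 12. The share at Neurod1, 44.4%, was close to the 43.6% of the whole genome, and that at Neurod6 rests on 3 regions. The shares at Prox1, Neurod2 and Bcl11b were below that of the genome.

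The windows held 29 peaks of replicate 1, 35 of replicate 2 and 12 of replicate 3. This was 47.9 peaks per Mb in replicate 1, against 25.1 over all its autosomes, and 57.9 against 27.5 in replicate 2. In replicate 3 it was 19.8 against 19.5. The ratio of the loci to the autosomes was thus 1.91, 2.11 and 1.02, with a mean of 1.68 ± 0.58 (SD, n = 3). In length, peaks covered 2.34% of the windows in replicate 1, 3.40% in replicate 2 and 0.663% in replicate 3, against 1.53%, 1.71% and 0.845% of the autosomes. In replicate 3 the loci were close to the autosomes in peak density and below them in length covered. A two-sided exact sign-flip permutation test of the log2 ratio over the 3 animals gave p = 0.25 for peaks per Mb, higher at the loci in 3 of 3 animals, which is the smallest p it allows. For length covered the same exact permutation test gave p = 0.50, higher in 2 of 3 animals, and both were 0.50 after Benjamini-Hochberg adjustment over these 2 tests. The autosome lengths run from the first to the last peak and include gaps of the assembly. Each window was assigned to a gene, whereas the autosomes were taken whole. Windows of other genes were not compared, so the ratios do not set these loci apart from other genes.

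**Figure D2:**
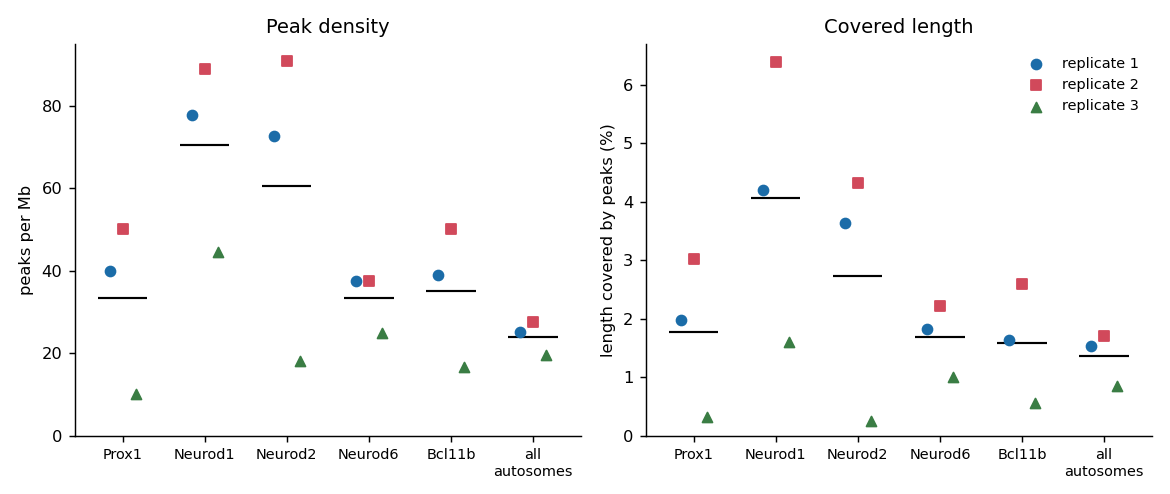
Peaks per Mb (left) and percent of length covered by peaks (right) in the window of each gene and over all autosomes, with 1 point per animal and a line at the mean of the 3. Replicate 3 is the lowest point in every column, and Neurod1 and Neurod2 are the highest in replicates 1 and 2.

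Peaks at these loci were mostly of low to middling score. Above percentile 50 of their list were 8 of 29 peaks in replicate 1, 8 of 35 in replicate 2 and 5 of 12 in replicate 3. That is 21 of 76 peaks or 27.6%, against 50% by construction over all peaks. No peak of the 76 was in the highest-scoring 10% of its list, against 10% of all peaks. The median percentile was 47.1, 34.8 and 41.8 in replicates 1, 2 and 3, a mean of 41.2 ± 6.2 (SD, n = 3). In regions common to the 3 animals, the peaks had a median percentile of 47.4, against 67.6 for all such peaks of the genome. For regions held by 2 animals the medians were 29.7 and 32.7, and for those held by 1 they were 17.8 and 16.6. The gap to the genome was thus largest in the regions held by all 3 animals, where 33 peaks come from 11 regions. The loci also had a smaller share of such regions, 27.5% against 43.6%. The part of that share in the lower scores was not tested. Peaks had a median width of 469 bp in replicate 1, 501 bp in replicate 2 and 315.5 bp in replicate 3, against 504, 504 and 353 bp in the whole lists.

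The positions of the peaks were described where all 3 animals had one. These regions were formed by joining peaks that overlap, so nearness of the peaks follows in part from the joining. The distances were not compared with those of other regions in the genome. The outermost midpoints of the 11 regions were 20.5 to 143.5 bp apart, with a median of 65 bp. The bases common to all 3 peaks numbered 134 to 590, with a median of 311. The peak of replicate 3 was the narrowest in 10 of the 11 regions, and in 9 it lay within the outer bounds of the other peaks. Replicate 3 also had the narrowest peaks in the whole lists, with a median of 353 bp against 504 bp in replicates 1 and 2. The same counts over the genome were not made, so they are not shown to be particular to these loci.

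**Figure D3:**
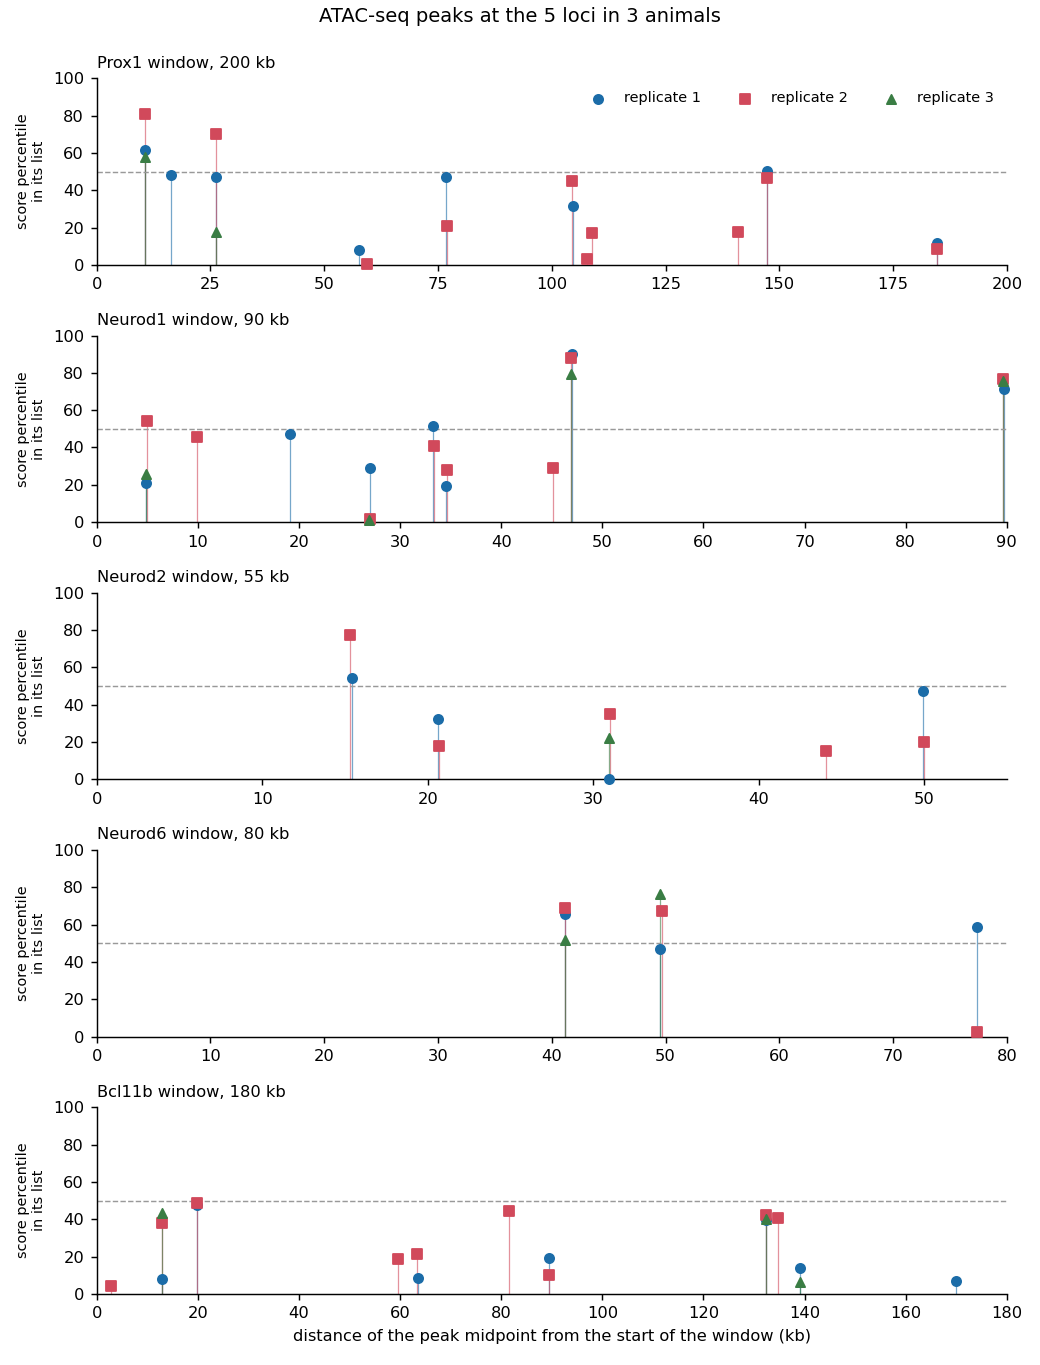
Each ATAC-seq peak of the 5 windows at the distance of its midpoint from the window start in kb (x axis), with its score percentile within its own list (y axis); colours and shapes are the 3 animals and the dashed line is percentile 50. The Neurod1 region near 47 kb stands highest, and all Bcl11b peaks lie below the line.

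Neurod1 had the strongest region of all 5 loci. It lay at chr2:79296477-79297488, near the middle of the window, and scored 475.94 in replicate 1, 503.20 in replicate 2 and 201.44 in replicate 3. These scores ranked 6333 of 62912, 8265 of 68699 and 10073 of 48769 peaks. Its percentile was 89.9, 88.0 and 79.3, a mean of 85.7 ± 5.6 (SD, n = 3), so it stood high in each animal. Its peaks were 963, 901 and 590 bp wide, and 590 bp were common to all. In replicate 2 a further peak of 2233 bp ended 259 bp before it, at chr2:79293985-79296217. That was the widest peak at the 5 loci, with a score of 82.97 (percentile 28.9), and neither other animal had a peak there. It was chosen for mention with its values known.

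The other regions of the Neurod1 window held by all 3 animals were unlike in rank. The one at chr2:79339393-79339948 scored 216.71, 301.21 and 180.55 in replicates 1, 2 and 3, with percentiles of 71.3, 76.8 and 75.8. It was the steadiest of the higher regions, at 74.6 ± 2.9 (SD, n = 3), but in replicate 1 it ended only 52 bp inside the window. The next peak beyond that edge, in replicate 1, began 12036 bp outside and scored 209.03. In the gene order of GRCm38.p6, Neurod1 lies between Cerkl and Itprid2, and which of these genes the edge region is nearest to was not determined. The region at chr2:79254640-79255241 scored 68.92, 147.60 and 66.40, so replicate 2 was well above the others in percentile, at 54.1 against 21.1 and 25.6. The region at chr2:79276752-79277220 was weak, with scores of 79.48, 51.16 and 50.49, and in replicates 2 and 3 it was near the lowest reported score of about 50. Between these, replicates 1 and 2 shared regions at chr2:79283027-79283604 and chr2:79284319-79284859, only 714 bp apart. Between the strongest region and the edge region, no animal had a peak over 41904 bp.

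Neurod6 had the fewest regions, 3 in 80 kb, of which 2 were held by all 3 animals. At chr6:55630879-55631482 the scores were 183.41, 228.58 and 100.92, with percentiles of 66.0, 69.1 and 51.9 in replicates 1, 2 and 3. All 3 values were above the middle of their list. A second region, 7787 bp further on at chr6:55639270-55640032, scored 114.01, 217.33 and 183.38. Its percentiles were 47.1, 67.5 and 76.4, so here replicate 3 was the highest and replicate 1 the lowest. This was the only one of the 11 regions in which the peak of replicate 3, at 504 bp, was wider than that of another animal, 429 bp in replicate 1. The last region, at chr6:55667178-55667640, had no peak in replicate 3 and differed widely between the others, at 150.41 in replicate 1 (percentile 58.9) and 51.90 in replicate 2 (percentile 2.42). The first 40.9 kb of the window held no peak in any animal. Adcyap1r1 and Itprid1 are the neighbours of Neurod6 in the gene order of GRCm38.p6.

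Neurod2 had 5 regions in 55 kb, but only 1 was held by all 3 animals. That region, at chr11:98190755-98191245, was weak, with scores of 50.31, 93.62 and 63.17. Its percentiles were 0.396, 34.8 and 21.9 in replicates 1, 2 and 3. In replicate 3 the peak was 134 bp wide, the narrowest at the 5 loci. The strongest region of the window, at chr11:98174979-98175729, scored 134.18 in replicate 1 and 305.80 in replicate 2, with percentiles of 54.3 and 77.2, and replicate 3 had no peak there. Of the 13 regions that replicates 1 and 2 held without replicate 3, it had the highest mean percentile, 65.7. It was picked out with its values known. A peak of replicate 1 with a score of 53.55 began 258 bp beyond the end of the window and was not counted. In GRCm38.p6 the nearest protein-coding genes in order are Cdk12 on one side and Gm33099 and Ppp1r1b on the other.

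Prox1 had the most regions, 12 in 200 kb, of which 2 were held by all 3 animals. Both lay near the start of the window. The stronger, at chr1:191900308-191900998, scored 160.60 in replicate 1, 356.23 in replicate 2 and 113.45 in replicate 3. Its percentiles were 61.4, 80.8 and 57.6, all above the middle of their list, with a mean of 66.6 ± 12.4 (SD, n = 3). The other, at chr1:191915938-191916549, scored 114.60, 234.96 and 60.11. Its percentiles of 47.4, 69.9 and 17.5 spread over most of the scale, with an SD of 26.3, the widest of the 11 regions. These were the only peaks of replicate 3 in the Prox1 window, and over the 173.6 kb that followed it had none.

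Replicates 1 and 2 shared 4 further Prox1 regions. The highest by percentile, at chr1:192036971-192037517, scored 122.86 and 121.89, with percentiles of 50.5 and 46.4. Replicate 2 had a group of 3 peaks from chr1:191993936 to 191999339. Of these, the peak at chr1:191998122-191999339 was the widest Prox1 region, 1218 bp, with a score of 66.20 (percentile 17.0), and neither other animal had it. The strongest region held by 1 animal, at chr1:191906116-191906602, scored 116.84 in replicate 1 (percentile 48.2). Just beyond the window, 8698 bp after its end, replicate 2 had a peak with a score of 220.51 (percentile 68.0). It was left out by the window, as was the peak there in replicate 1, with a score of 53.34. Smyd2 and Rps6kc1 are the neighbours of Prox1 in the gene order of GRCm38.p6.

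Bcl11b had 11 regions in 180 kb and no peak above percentile 50 in any animal. The region with the highest mean percentile held by all 3 was chr12:109242015-109242624, with scores of 97.58, 111.21 and 82.08. Its percentiles of 39.7, 42.5 and 40.2 gave 40.8 ± 1.5 (SD, n = 3), the smallest spread of the 11 regions, and its midpoints were also the closest, 20.5 bp apart. The region at chr12:109122580-109123090 scored 56.05, 100.24 and 86.63, with percentiles of 7.85, 37.9 and 43.4, so replicate 1 stood far below the others. The strongest region of 2 animals, chr12:109129579-109130079, scored 115.40 in replicate 1 and 129.98 in replicate 2, with percentiles of 47.7 and 49.0, and replicate 3 had no peak. The strongest of 1 animal was that of replicate 2 at chr12:109191207-109191736, with a score of 116.35. The widest region, 742 bp at chr12:109169127-109169868, was also of replicate 2 alone and scored 68.00. At chr12:109248900-109249290 replicates 1 and 3 had weak peaks, with scores of 61.14 and 53.20, and replicate 2 had none.

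The loci were ordered by their highest percentile in each animal. The mean was 85.7 ± 5.6 at Neurod1, 70.5 ± 5.3 at Neurod6, 66.6 ± 12.4 at Prox1, 51.1 ± 27.8 at Neurod2 and 46.7 ± 2.9 at Bcl11b (SD, n = 3). At Neurod1 and Prox1 the highest peaks of the 3 animals lay in the same region. At Neurod6, Neurod2 and Bcl11b that of replicate 3 lay in another region than those of replicates 1 and 2. There the SD is not the spread of 1 region between animals. The 3 values of Neurod1, 79.3 to 89.9, did not overlap those of Neurod6, 66.0 to 76.4, but overlapped those of Prox1, 57.6 to 80.8. Those of Neurod6 overlapped Prox1 (57.6 to 80.8), Prox1 overlapped Neurod2 (21.9 to 77.2), and Neurod2 overlapped Bcl11b (43.4 to 49.0). Neurod1 was the highest of the 5 in every animal. Windows differ in length and in their number of peaks, which bears on such a highest value. By length covered, Neurod1 stood at 4.07% ± 2.40, Neurod2 at 2.73% ± 2.18, Prox1 at 1.77% ± 1.36, Neurod6 at 1.68% ± 0.62 and Bcl11b at 1.59% ± 1.02 (SD, n = 3). The ranges of all neighbours in this order overlapped, but the loci were measured in the same 3 animals. Within each animal Neurod1 was the highest, at 4.21%, 6.39% and 1.60% in replicates 1, 2 and 3. Neurod2 was the lowest of the 5 in replicate 3, at 0.244%. Prox1 stood at 1.15% without replicate 2, below Neurod6 at 1.41%. In the highest-scoring 50% of each list, the order was Neurod1 at 1.78%, Neurod6 at 1.32%, Neurod2 at 0.755%, Prox1 at 0.457% and Bcl11b at 0%.

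The number of regions per Mb held by all 3 animals also differed between the loci. It was 44.4 at Neurod1 against 14.1 on the whole of chromosome 2, 25 at Neurod6 against 15.7 on chromosome 6, and 18.2 at Neurod2 against 13.2 on chromosome 11. At Prox1 it was 10 against 16.8 on chromosome 1, and at Bcl11b 11.1 against 15.3 on chromosome 12. These rest on 1 to 4 regions per locus and, for Prox1 and Bcl11b, their direction rests on replicate 3. Without it, regions held by both remaining animals stood at 30 per Mb at Prox1 against 23.1 on chromosome 1, and at 27.8 at Bcl11b against 21.6 on chromosome 12. When regions of any number of animals were counted, all 5 loci stood above their chromosome, from 37.5 against 36.6 per Mb at Neurod6 to 100 against 33.2 at Neurod1. The chromosomes were taken whole, and windows of other genes were not compared.

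The regions missing from replicate 3 were weaker in the other animals, with overlap. Over the 13 regions that replicates 1 and 2 held without it, the median of their mean percentile was 33.6, and over the 11 regions that it also held it was 57.3. The ranges overlapped, since the highest of the missing regions, at Neurod2, stood at 65.7 and the lowest of the held ones, at Neurod1, at 15.3. A difference in this direction was also present over the genome, by an unlike measure. Among all peaks of the genome, the median percentile was 67.6 in regions held by 3 animals and 32.7 in those held by any 2. Those medians are over single peaks and include peaks of replicate 3, so their size cannot be set against that at the loci. Replicate 2 had the higher percentile of the pair in 9 of the 11 regions that replicate 3 held and in 5 of the 13 that it lacked. Over the genome these shares were 58.6% and 56.9%, and the difference at the loci was not tested. Across the 24 regions, the Spearman correlation of percentiles between replicates 1 and 2 was 0.57, given as a description of regions that share 2 libraries. A missing peak was below the authors' threshold in that list and is not shown to be closed.

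**Figure D4:**
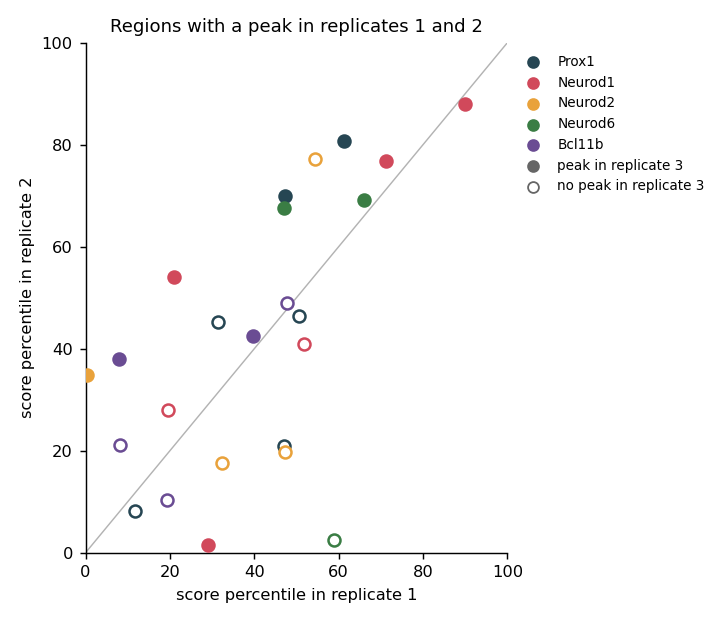
Score percentile in replicate 1 (x axis) and replicate 2 (y axis) for the 24 regions with a peak in both, coloured by gene; filled points also have a peak in replicate 3 and open points do not, and the line marks equal values. Of the 11 filled points 9 lie above the line, against 5 of the 13 open ones; over the genome these shares were 58.6% and 56.9%.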

How the data were processed

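ATAC-seq libraries of 3 animals were analysed. Alignment was made with Bowtie2 on mm9, per the submitters' processing notes. The deposited lists name their peaks as those of MACS, with 1 list per sample. Versions, settings, duplicate and mitochondrial filtering and any Tn5 shift are not stated there. The deposited score has no stated unit, and no list held a value below 50. It was used within lists, as rank and percentile (ties at their middle). The files hold no read counts, so depth is unknown. The number of animals limits the precision.

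Starts were counted from 1. Peaks of different lists were joined at 1 bp of overlap over the whole genome, and regions overlapping a window were kept. The windows, lists and tests were chosen with earlier results of these data known. All regions held by 3 animals were named. At Prox1 and Bcl11b the rule allowed 6 of these, plus the widest region and the strongest of 2 animals and of 1. With 1 group there was no test between conditions. The loci were set against the autosomes within each animal by an exact sign-flip permutation test, added after seeing the data. Joining and ranking were tested on simulated lists. Alternatives were 50% reciprocal overlap, the highest-scoring 50%, equal list lengths, the central 50% of each window and leaving out each replicate. Protein comparisons were not made. Python 3.11.15, numpy 2.4.6, pandas 2.3.3 and matplotlib 3.10.9 were used.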

Additional observations from a re-analysis of the deposited data

How the results depend on the processing

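The 11 regions held by all 3 animals became 4 in the highest-scoring 50% of each list, 7 with an equal number of top peaks and 6 in the central 50% of each window, and 11 to 24 when 1 replicate was left out, with 24 without replicate 3. Their share was 30.6% to 60% when 1 replicate was left out. At single loci, the highest-scoring 50% left 1 at Prox1, 2 at Neurod1, 0 at Neurod2, 1 at Neurod6 and 0 at Bcl11b, where 0% of the window was then covered. Equal lists left 2 at Neurod1, 0 at Neurod2 and 1 at Bcl11b. The central 50% left 0 at Prox1, 2 at Neurod1 and 1 at Bcl11b, and covered 2.62% at Neurod6. Reciprocal overlap left 0 at Neurod2. Leaving out a replicate gave 2 to 6 at Prox1, 4 to 6 at Neurod1, 1 to 4 at Neurod2, 2 to 3 at Neurod6 and 2 to 5 at Bcl11b, with the highest values without replicate 3. The median percentile was 69.8 in the highest-scoring 50%, which removes lower peaks by construction. Of the 85 alternative values, 23 were counted as moved and 62 as unmoved. Among those with a replicate left out, only values without replicate 3 were counted as moved. These were the total, its share and the counts at Prox1, Neurod2 and Bcl11b. Unmoved values differed by less than the spread between replicates, stayed in the 95% binomial interval of the share or, for counts, moved at most 1.5-fold. That interval, 14.6% to 43.9%, treats the 40 regions as independent, which they are not, since they share 3 animals. It does not measure a spread between animals, so it does not show that the share is stable. For coverage the spread between replicates is wide, so the order of the loci changed within it. Leaving 1 of 3 out cannot exceed that spread for coverage or for the median percentile. Those values were counted as unmoved by construction and do not show stability. Depth is unknown. With a lone group, no replicate block between groups could be fitted.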
